A study of Mus musculus with 2 samples.

Results

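EP300 binding was described around 9 genes whose products set which globin genes are expressed in mammalian red cells: Bcl11a, Zbtb7a, Sox6, Ikzf1, Nr2c1, Nr2c2, Myb, Lin28b and Igf2bp1. They are 9 of the 21755 protein-coding genes of the annotation used (GENCODE release M21 on mm10). Their peaks came from the optimal peak list, the longer of the deposited lists that the authors thresholded for reproducibility. They were the entries whose summit lay within 100 kb of any annotated transcription start site (TSS) of the gene. This gave 75 peaks out of 17043 in the optimal list, counting the 19 autosomes and X. Membership rested on position alone and used no signal value.

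The data are ChIP-seq, which recovers the DNA bound by a protein with an antibody and sequences it. The antibody was against EP300, an acetyltransferase of histones found at active enhancers and promoters. There was 1 group of 2 libraries, both from strain B6NCrl embryos at 14.5 days, made from powdered liver combined over many dissections, males and females together. The libraries carry replicate numbers 1 and 2 but the same biosample name. No label ties them to different embryos, and the differences between them may be those of the procedure alone. Whole liver was used, so more cells with a bound site and more binding per cell cannot be told apart.

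In the mouse, the embryonic globin genes give way to the adult ones as red cell formation moves to the fetal liver. In humans a fetal stage, with gamma-globin, lies between them. BCL11A and ZBTB7A (also called LRF) are zinc finger repressors that keep human gamma-globin silent in adult red cells, and SOX6 acts with BCL11A on embryonic globin in mice. NR2C1 and NR2C2 (TR2 and TR4) are orphan nuclear receptors that bind direct repeats in the human embryonic and fetal globin promoters, and IKZF1 (Ikaros) is a zinc finger factor of lymphoid and red cell precursors. MYB keeps progenitors dividing, while LIN28B, which blocks let-7 microRNAs, and IGF2BP1 are RNA-binding proteins of the fetal programme.

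Sequence is shown first for the sites on which the account turns. Each run is 201 bases of the mm10 (GRCm38) genome centred on the summit, 5′ to 3′ on the strand of the gene, with capitals marking every match to a GATA motif (GATA with A or T before it and A or G after it, or the reverse complement), the sequence read by GATA1 and its relatives. A match is a description of letters and not a bound site. The Bcl11a sites, on the plus strand at chr11:24129931-24130131 and chr11:24136229-24136429, are the intronic peaks with a signal over 100.
Bcl11a at 51.9 kb: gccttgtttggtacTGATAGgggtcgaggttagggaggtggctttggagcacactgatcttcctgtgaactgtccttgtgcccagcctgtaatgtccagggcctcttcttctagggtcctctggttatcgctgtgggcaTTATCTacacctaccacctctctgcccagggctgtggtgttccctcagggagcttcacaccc
Bcl11a at 58.2 kb: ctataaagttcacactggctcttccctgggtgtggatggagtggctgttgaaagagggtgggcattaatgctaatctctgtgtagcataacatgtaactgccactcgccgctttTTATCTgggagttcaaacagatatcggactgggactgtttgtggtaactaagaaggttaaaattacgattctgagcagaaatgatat

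The 4 upstream Myb sites with a signal over 100 inside the window are shown on the minus strand, at chr10:21196679-21196879, chr10:21221526-21221726, chr10:21228556-21228756 and chr10:21241882-21242082, from nearest to farthest from the gene.
Myb 35.9 kb upstream: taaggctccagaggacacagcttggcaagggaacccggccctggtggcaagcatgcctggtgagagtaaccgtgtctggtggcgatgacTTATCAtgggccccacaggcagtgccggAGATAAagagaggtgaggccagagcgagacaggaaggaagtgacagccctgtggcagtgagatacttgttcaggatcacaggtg
Myb 60.7 kb upstream: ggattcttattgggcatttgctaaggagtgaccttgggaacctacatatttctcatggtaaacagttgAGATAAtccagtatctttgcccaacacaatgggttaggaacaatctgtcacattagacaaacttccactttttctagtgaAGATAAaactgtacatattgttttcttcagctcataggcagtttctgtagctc
Myb 67.8 kb upstream: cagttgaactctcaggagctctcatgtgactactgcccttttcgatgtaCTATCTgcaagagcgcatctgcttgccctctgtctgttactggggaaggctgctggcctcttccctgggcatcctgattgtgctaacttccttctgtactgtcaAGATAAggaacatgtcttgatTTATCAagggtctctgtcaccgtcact
Myb 81.1 kb upstream: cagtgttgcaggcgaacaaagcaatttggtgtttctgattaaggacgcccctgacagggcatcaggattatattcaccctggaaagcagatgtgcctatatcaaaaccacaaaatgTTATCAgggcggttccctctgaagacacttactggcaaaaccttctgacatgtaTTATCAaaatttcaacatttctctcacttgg

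The remaining 4 are the strongest peaks of Zbtb7a (chr10:81136122-81136322, plus strand), Sox6 (chr7:115845037-115845237, minus strand), Ikzf1 (chr11:11733283-11733483, plus strand) and Lin28b (chr10:45584347-45584547, minus strand). The Zbtb7a promoter run is 76.1% G or C, and the 9 others run from 38.3% to 57.7%.
Zbtb7a promoter: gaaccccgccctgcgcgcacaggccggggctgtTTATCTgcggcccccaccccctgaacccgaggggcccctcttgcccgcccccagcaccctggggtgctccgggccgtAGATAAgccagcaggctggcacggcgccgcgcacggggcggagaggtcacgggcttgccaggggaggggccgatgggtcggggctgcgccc
Sox6 intron 2: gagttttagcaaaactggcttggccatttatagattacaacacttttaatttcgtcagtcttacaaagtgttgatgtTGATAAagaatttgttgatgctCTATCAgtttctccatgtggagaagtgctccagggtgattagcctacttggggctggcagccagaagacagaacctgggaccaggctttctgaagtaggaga
Ikzf1 intron 3: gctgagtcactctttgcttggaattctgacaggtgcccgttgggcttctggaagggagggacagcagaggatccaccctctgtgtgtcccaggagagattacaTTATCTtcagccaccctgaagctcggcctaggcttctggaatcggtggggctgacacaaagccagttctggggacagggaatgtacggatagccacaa
Lin28b window, in Hace1: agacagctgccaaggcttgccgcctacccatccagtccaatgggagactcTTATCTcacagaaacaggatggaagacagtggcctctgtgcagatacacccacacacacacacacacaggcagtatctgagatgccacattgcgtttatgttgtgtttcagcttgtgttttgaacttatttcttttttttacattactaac

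Strong peaks stood at 4 of the genes. Of the 75 peaks, 25 (33.3%) had a signal of 100 or more, against 3399 of all 17043 optimal peaks (19.9%). Of these 25, 22 lay in the windows of Bcl11a, Myb, Sox6 and Ikzf1, some of those at Myb nearest to another coding gene's TSS. All 25 held a GATA match and had a summit in both libraries, but so did 92.6% and 99.9% of all optimal peaks of that strength. Promoter peaks, those with the summit within 1 kb of any TSS, were 3 of the 25, against 17.2% of all such peaks. Signal is the authors' own value for a peak, used here to describe, rank and sum peaks within a list only, since each list has its own scale. The files give no read totals, so the depth of the libraries is unknown, and the intervals below cover counting error only.

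Counted by gene, a peak nearby was common. All 9 genes had an optimal peak within 100 kb, where 66.5% of all coding genes did, and all 9 had one within 50 kb, against 53.7%. Within 20 kb, 8 of 9 did (38.6% of all coding genes), Nr2c1 being the exception. Within 5 kb it was 6 of 9 (23.5%) and within 1 kb 6 of 9 (15.5%). A peak of the strongest decile of the optimal list (signal 169.9 or more) lay within 100 kb of 6 of the 9 genes and of 19.8% of all coding genes, and at least 2 such peaks lay near 3 of 9 (Sox6, Ikzf1 and Myb) and near 5.86% of all. Where a strongest-decile peak had to have the gene's own TSS as its nearest coding TSS, 4 of the 9 remained (Bcl11a, Myb, Sox6 and Ikzf1), against 5.66% of all coding genes. The 9 genes are too few, and were named with earlier results in view, for these shares to carry a test.

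The genes differed widely among themselves. Sox6 had 23 peaks, Zbtb7a and Myb 10 each, Ikzf1 9, Bcl11a, Lin28b and Igf2bp1 5 each, and Nr2c1 and Nr2c2 4 each, beside a median of 2.0 over all coding genes. A gene with TSSs far apart covers more sequence, so peaks were also counted per 100 kb covered. Zbtb7a then came first with 4.93 and Nr2c2 last with 1.47, against a median of 0.89, and Sox6, whose 13 TSSs cover 640.9 kb, had 3.59. Strength did not follow number, as the plot of signals by gene shows: Zbtb7a with 10 peaks reached only 52.8, whereas Bcl11a with 5 reached 343.4. Of the 75 peaks, 45 had the listed gene's TSS as the nearest coding TSS and 30 had that of another gene.

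**Figure D1:**
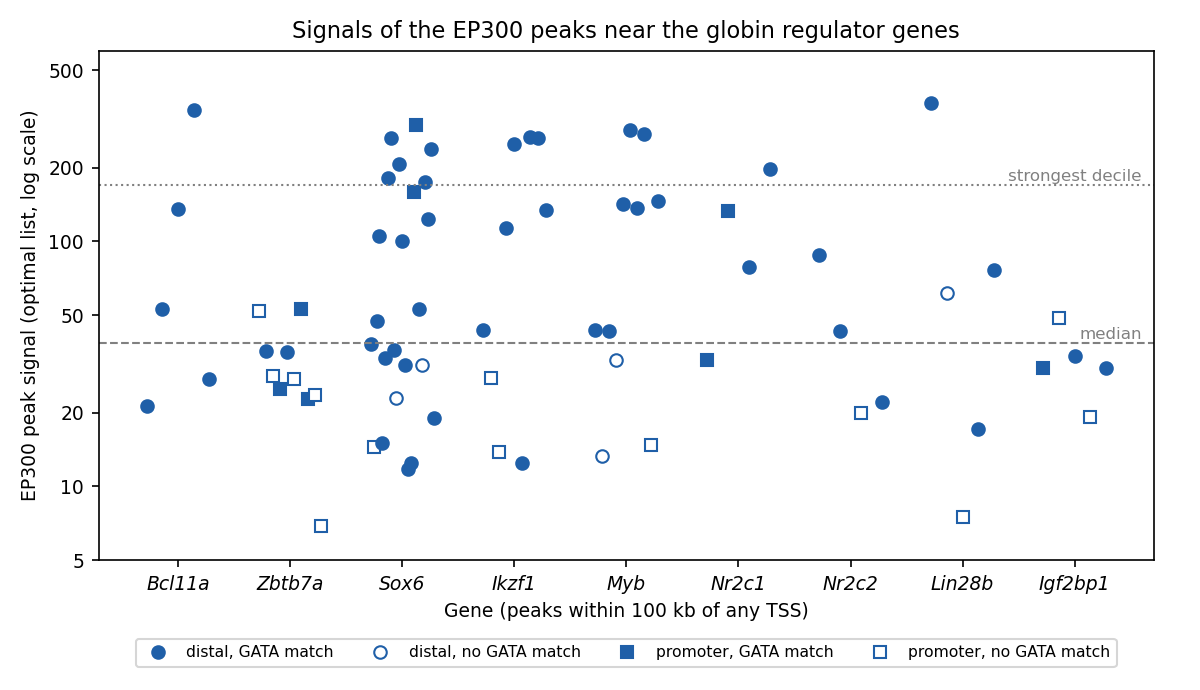
Signal of each of the 75 optimal peaks (vertical axis, log scale) by gene (horizontal axis), with circles for distal and squares for promoter peaks, filled where a GATA match lay within 100 bp of the summit. Sox6, Ikzf1, Myb and Bcl11a hold most points above 100, while no peak of Zbtb7a or Igf2bp1 rises above 52.8.

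At Bcl11a all 5 peaks lay in intron 2 of the main transcript (the one with the longest coding sequence), and none lay at the promoter. The strongest, 58.2 kb downstream of the main TSS (chr11:24136162-24136477), had a signal of 343.4 and rank 255 in the optimal list, above 98.5% of it. Offsets here are from the main TSS, and the nearest Bcl11a TSS, of another transcript, was 6050 bp away. Replicate 1 gave this peak 171.4 (rank 268) and replicate 2 gave it 173.3 (rank 261). The libraries thus placed it almost alike, and both put the summit on the same base. Of all coding genes, 96.7% had a weaker strongest peak in their window, or none.

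The second Bcl11a peak, at 51.9 kb (chr11:24129905-24130146) and 12348 bp from the nearest Bcl11a TSS, had 135.7. Replicate 1 gave it 81.3 (rank 1767) and replicate 2 gave it 59.3 (rank 2890). These 2 peaks, 6.3 kb apart, held 82.5% of the summed signal of the gene's peaks. The other 3 were weak: 21.2 at 22.4 kb, found in replicate 1 alone, 53.0 at 23.6 kb and 27.4 at 70.7 kb. The first pair of these also lies within Gm12064, an antisense noncoding gene. All 5 held a GATA match, and the sites at 51.9 and 58.2 kb each also held a RUNX match (TGTGGT). In the stronger site the GATA match was centred 16.5 bp downstream of the summit, and a CACCC-like match (CCNCNCCC, the kind of sequence read by KLF1) lay at -69.5 bp. The promoter itself had only an entry of 18.6 in the pooled list, 62 bp upstream of the TSS, which is not in the optimal list.

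Sox6 had the most peaks, 21 of its 23 within the gene and 2 at the neighbouring gene 1110004F10Rik. Offsets for Sox6 are from the TSS of the transcript with the longest coding sequence, which lies inside the gene. The 10 peaks with a signal of 100 or more were spread over 429.4 kb and held 83.5% of the summed signal. The strongest, at chr7:115844991-115845273 in intron 2, had 299.2, with 139.2 in replicate 1 and 160.5 in replicate 2. It lay 149.9 kb downstream of that TSS and 968 bp from the TSS of another Sox6 transcript, so it counts as a promoter peak. A further peak of 159.6 stood 36 bp from a Sox6 TSS.

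Other strong Sox6 peaks were intronic. At 53.2 kb the signal was 263.8, with 133.6 in replicate 1 and 129.2 in replicate 2. Far downstream, in intron 10 at 444.4 kb, it was 238.3, with 121.9 in replicate 1 and 119.4 in replicate 2. Peaks of 207.8, 181.3 and 175.1, at 99.9, 43.2 and 164.0 kb, also reached the strongest decile, so Sox6 alone gave 6 of the 14 peaks of that decile. Of its 23 peaks, 20 held a GATA match. By replicate 1 alone, with as many top peaks as the optimal list holds, the Sox6 count was 15.

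At Ikzf1 the strong peaks stood well inside the gene. The 5 with a signal of 100 or more lay in introns 3 and 4, between 42.5 and 57.0 kb downstream of the TSS, within 14.5 kb, and held 91.3% of the summed signal. The strongest, at 47.5 kb (chr11:11733252-11733515), had 266.2, with 128.5 in replicate 1 and 136.8 in replicate 2. Next to it, at 49.4 kb, a peak of 264.7 had 122.4 in replicate 1 and 147.9 in replicate 2, with 4 GATA matches. Another, at 43.5 kb, had 250.5. The promoter peaks were far weaker, 27.8 and 13.8, and held no GATA match.

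Ikzf1 is also a lymphoid gene, and markers of T and B cells were looked at beside it. Of 8 such markers, 5 had a peak within 100 kb, and Pax5, Rag1 and Rag2 had none. None of the 8 had a strongest-decile peak within 100 kb, although Cd79a had one just under that limit, of 167.4, nearest to Rps19. The shares over all coding genes, 66.5% and 19.8%, are given above. The share of lymphoid cells in the signal at Ikzf1 was not tested. The 100 kb window ends within the flank of this gene: 12 further peaks, 3 of them in the strongest decile and the highest 252.0, lay beyond it up to 100 kb past the gene's end. None of the 12 had Ikzf1 as the nearest coding TSS, and the highest lay nearest to Fignl1.

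Zbtb7a had promoter peaks and no strong ones. Its 3 peaks of its own lay within 1 kb of one of its TSSs, with signals of 27.5, 52.8 and 22.8. The middle one, 49 bp from the main TSS, differed between libraries, with 12.2 in replicate 1 (rank 13190) and 37.0 in replicate 2 (rank 4833), and 73 bp between the optimal summit and that of replicate 1. It held 2 GATA matches and 5 CACCC-like matches, some of which overlap one another. The other 7 peaks in the window lay nearest to Slc39a3, Creb3l3, Map2k2 and Eef2, and ran up to 51.8. The strongest peak of Zbtb7a was stronger than that of 53.8% of all coding genes, those with no peak included. Over the 14471 coding genes with a peak, the median strongest signal was 95.2.

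At Myb most of the signal lay upstream of the gene. Between the TSSs of Myb and of the next coding gene, Hbs1l, 135.1 kb apart, lay 11 optimal peaks, 8 of them within the 100 kb window. In humans the interval between these genes carries variants associated with fetal haemoglobin level. Of the 11 peaks, 5 had a signal over 100, 8 held a GATA match and 9 had a summit in both libraries. No list had an entry within 1 kb of the main Myb TSS. The single peak inside the gene, in intron 2, had 14.8 and ranked 192143 in replicate 2. It lay 705 bp from another Myb TSS, so it counts as a promoter peak.

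The strongest Myb peak stood 67.8 kb upstream (chr10:21228505-21228785). It had 285.8, with 147.8 in replicate 1 (rank 506) and 141.7 in replicate 2 (rank 603). Its sequence, printed above, held 3 GATA matches. One of them was part of a composite match, CTG followed after 7 or 8 bases by a GATA match ending in A, the arrangement read by a complex of TAL1 and GATA1. This site was the only one of the 11 with a composite match. Nearly as strong was the peak 35.9 kb upstream (chr10:21196655-21196885), with 273.8 in the optimal list, 126.2 in replicate 1 and 145.9 in replicate 2. Replicate 1 thus put the site at 67.8 kb higher and replicate 2 the site at 35.9 kb.

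The peak 60.7 kb upstream had 136.2, with 74.5 in replicate 1 and 61.4 in replicate 2. At 81.1 kb the signal was 142.4, with 63.9 in replicate 1 and 80.8 in replicate 2. Here too the order of the pair turned between libraries, so the lists do not separate them. Both held 2 GATA matches and an E-box (CAGNTG), at -35.5 bp from the summit in the site at 60.7 kb and at -11.5 bp in that at 81.1 kb. The site at 81.1 kb also held a RUNX match, at 7.5 bp. The 4 peaks between 60.7 and 84.8 kb upstream that lie in the intron of Gm33728, a noncoding gene, include 3 of these strong sites.

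The other upstream Myb peaks were weaker, from 13.3 to 43.6 at 84.8 to 98.9 kb. Just outside the window, 108.0 kb upstream, stood a peak of 219.9 (100 in replicate 1 and 124.3 in replicate 2), at 104.4 kb one of 18.2, and at 135.0 kb, 84 bp from the Hbs1l TSS, one of 30.9. Across the gene, 105.9 kb downstream in Ahi1, a peak of 145.6 fell inside the window through another Myb TSS. By nearest coding TSS only 3 of the 10 Myb peaks go to Myb, and the 67.8 kb site goes to Hbs1l, whose TSS is 67323 bp away against 67672 bp for the nearest Myb TSS. Which gene a site acts on was not measured.

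**Figure D2:**
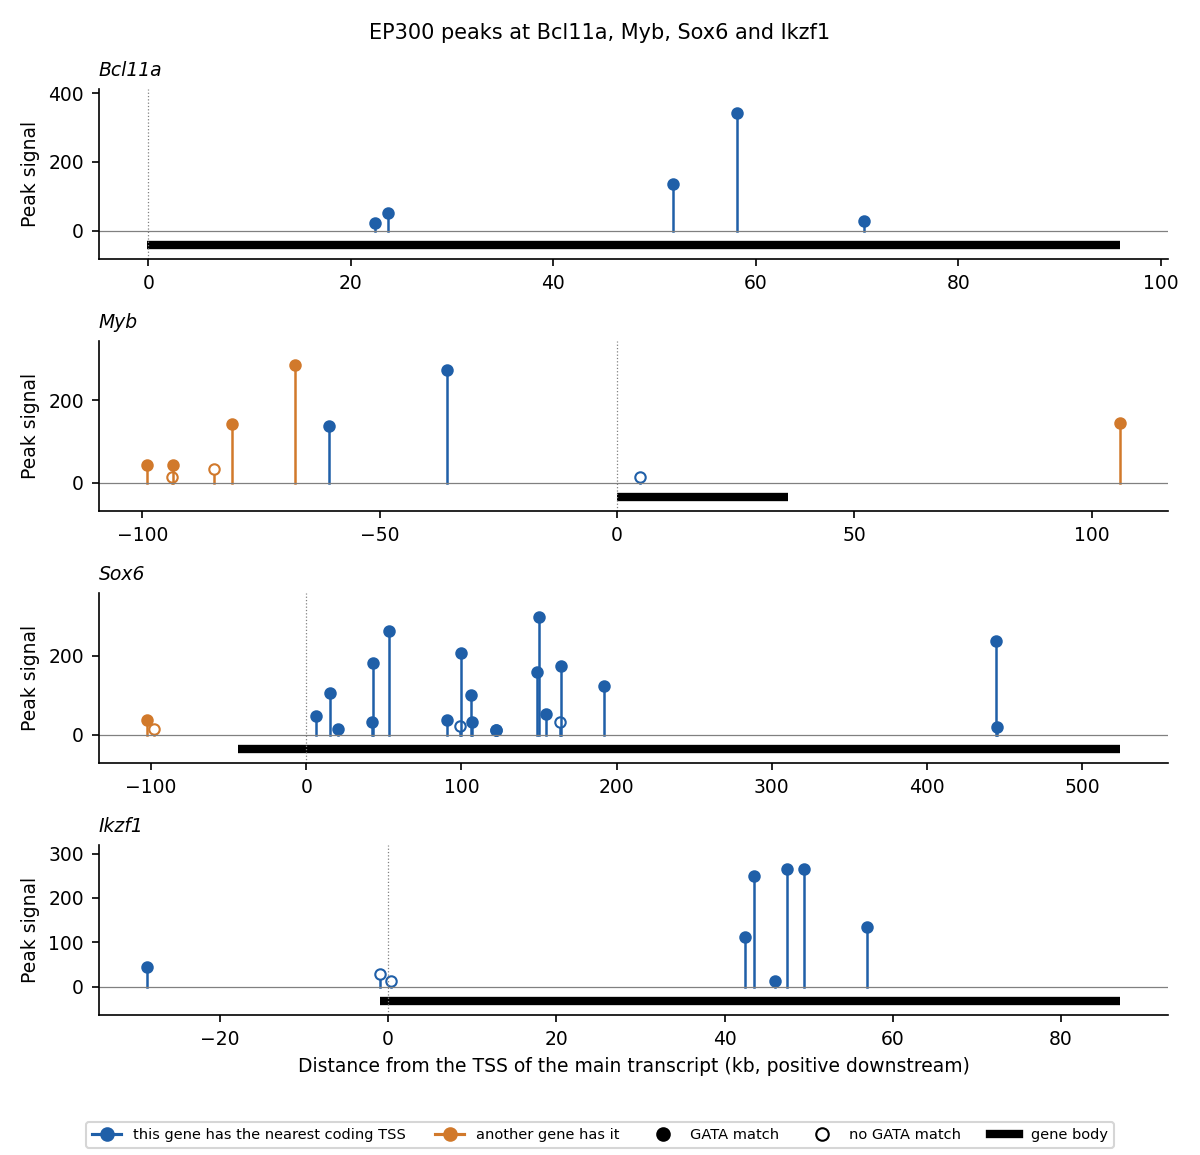
Signal of each optimal peak (vertical axis) against distance from the TSS of the main transcript in kb (horizontal axis, positive downstream) for Bcl11a, Myb, Sox6 and Ikzf1, blue where that gene has the nearest coding TSS, filled where a GATA match was found, with the gene body as a bar. The strong Bcl11a, Sox6 and Ikzf1 peaks lie within the gene, from 51.9 kb downstream at Bcl11a, and those of Myb lie mostly upstream, from 35.9 kb.

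The nuclear receptor genes had few peaks of their own. Nr2c1 had none within 20 kb, and all 4 peaks in its window lay nearest to other genes. Those at Fgd6 had 32.8, 133.3 and 78.6. The strongest, 197.7 (92.1 in replicate 1 and 106.3 in replicate 2), lay 101.4 kb downstream of the main TSS in intergenic sequence, nearest to Gm4792. At the Nr2c1 promoter the pooled list had an entry of 17.1, 390 bp upstream, not in the optimal list. Nr2c2 had a promoter peak of signal 20, found in replicate 1 alone, and one of 22.0 in intron 1 with 2 GATA matches. Its stronger peaks, 87.7 and 43.2, lay in introns of Fgd5.

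Of the genes for RNA-binding proteins, Lin28b had its strong signal in a neighbouring gene and Igf2bp1 had none. The strongest peak of all 75, at chr10:45584308-45584603, had 367.4 and rank 189, with 172.4 in replicate 1 (rank 260) and 195.7 in replicate 2 (rank 131). It lay in an intron of Hace1, 3937 bp from the nearest coding TSS, and 98.1 kb from the nearest Lin28b TSS. It is thus in the set only through the edge of the window. Close to the Lin28b TSS there was a peak of 7.5, found in replicate 2 alone, and inside the gene there were peaks of 17.1 in intron 4, also found in replicate 2 alone, and of 76.7 in a noncoding stretch of exon 5, both with Bves as the nearest coding TSS. Without the Hace1 pair, 76.7 would be the highest Lin28b value (41.5 in replicate 1 and 38 in replicate 2).

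Igf2bp1 had 1 peak of its own, 30.3 in intron 2 at 17.9 kb, with 2 GATA matches and 53.2% repeat sequence. The other 4 lay at Atp5g1 (48.5 and 30.3) and Snf8 (34.0 and 19.2). The promoter had only a pooled entry of 7.2, of rank 99381. The strongest Igf2bp1 peak, 48.5, was below the median of 95.2 over coding genes with a peak. It exceeded that of 51.8% of all coding genes, those with no peak included, the lowest figure of the 9. The figure was 97.6% for Lin28b by way of the Hace1 site.

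**Figure D3:**
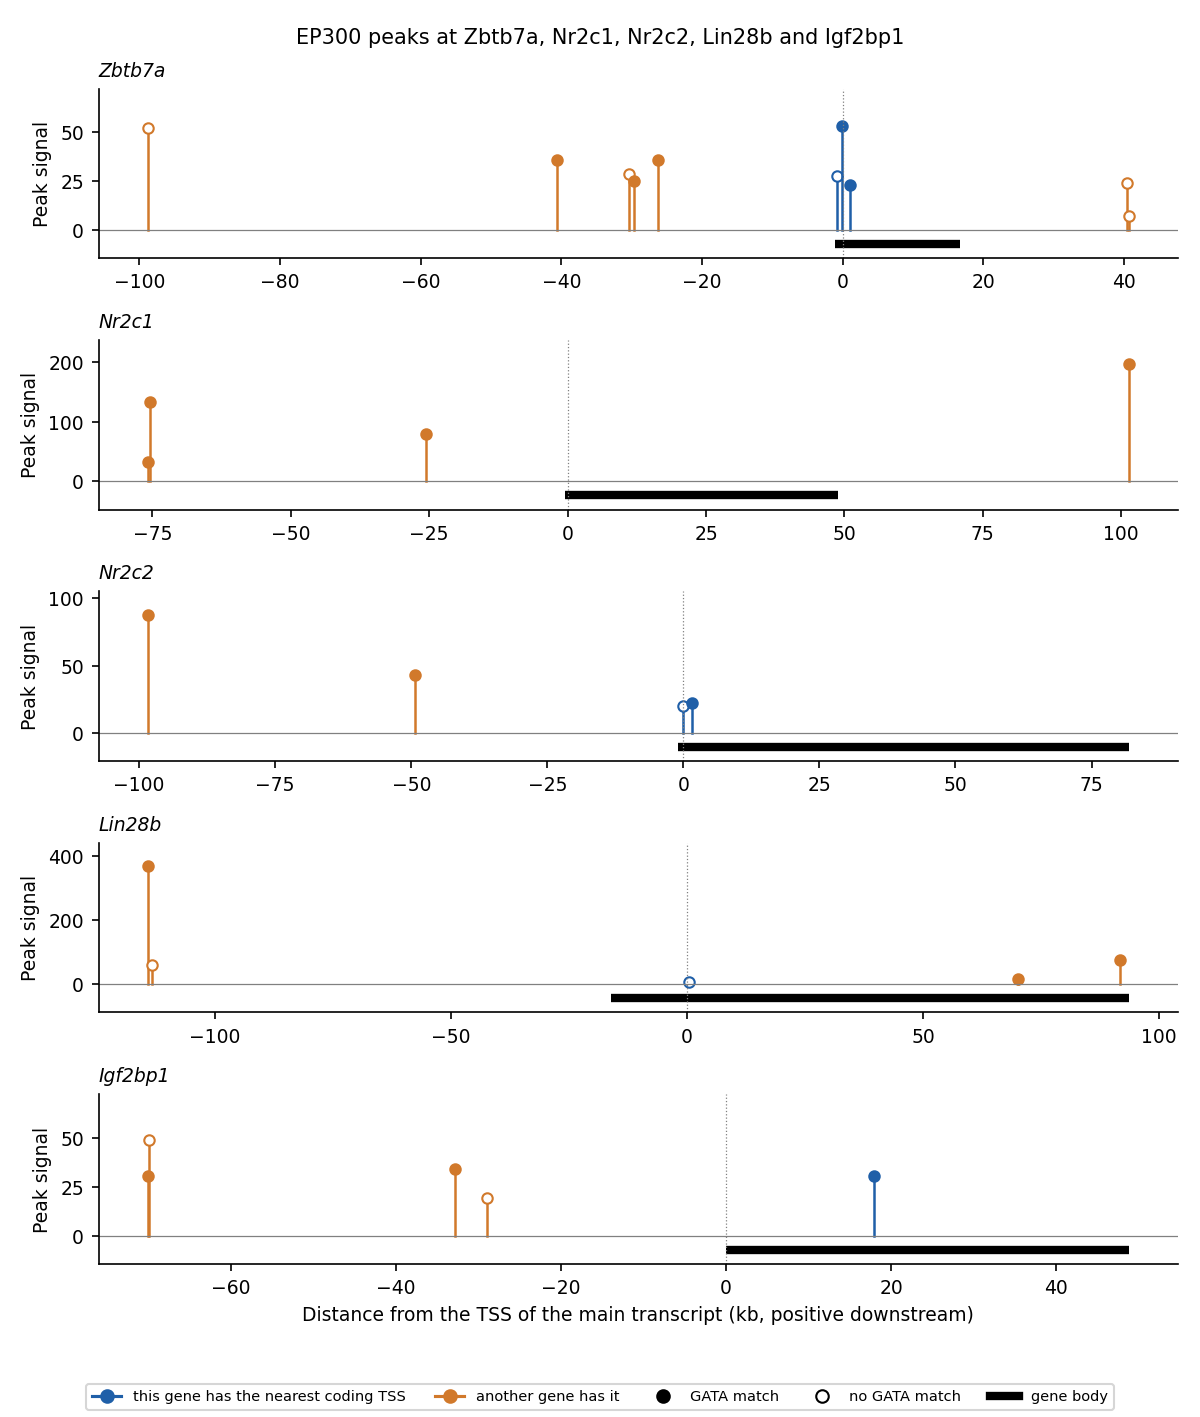
The same plot of signal against distance from the main TSS for Zbtb7a, Nr2c1, Nr2c2, Lin28b and Igf2bp1, each with its own vertical scale. Most points are orange, that is nearest to another coding gene, among them the Lin28b window's peak of 367.4 in Hace1 and the Nr2c1 window's peak of 197.7.

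The window also cuts between peaks at other genes. For Nr2c1 a peak of 62.2, nearest to Fgd6, lay 100034 bp from its nearest TSS, just outside, and one of 38.2, nearest to Gm4792, lay at 104.5 kb. For Zbtb7a a peak of 51.8 was inside at 97.8 kb, for Nr2c2 one of 87.7 was inside at 97.4 kb and the next, of 76.9 and nearest to Trh, was outside at 109.6 kb. For Ikzf1 the first peak beyond the window had 15.2, at 102.3 kb, and lay nearest to Fignl1.

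The 2 libraries gave most of the peaks. A summit within 100 bp in both library lists was found for 61 of the 75 peaks, 81.3% (95% Wilson interval 71.1 to 88.5), against 84.3% of all optimal peaks. Of the other 14, 6 were found in replicate 1 alone and 8 in replicate 2 alone, with signals from 6.9 to 31.4. Where both had a summit, the library ranks were within a factor of 2 for 53 of 61 (86.9%), against 82.8% of all. The summits of the 2 libraries were a median of 25 bp apart, against 20 bp for all optimal peaks. The 25 peaks with a signal of 100 or more ranked between 260 and 4239 in replicate 1 and between 131 and 3361 in replicate 2. The authors' shorter, conservative list held 61 of the 75 (81.3%), not all of them the same 61, against 78.4% of all optimal peaks.

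**Figure D4:**
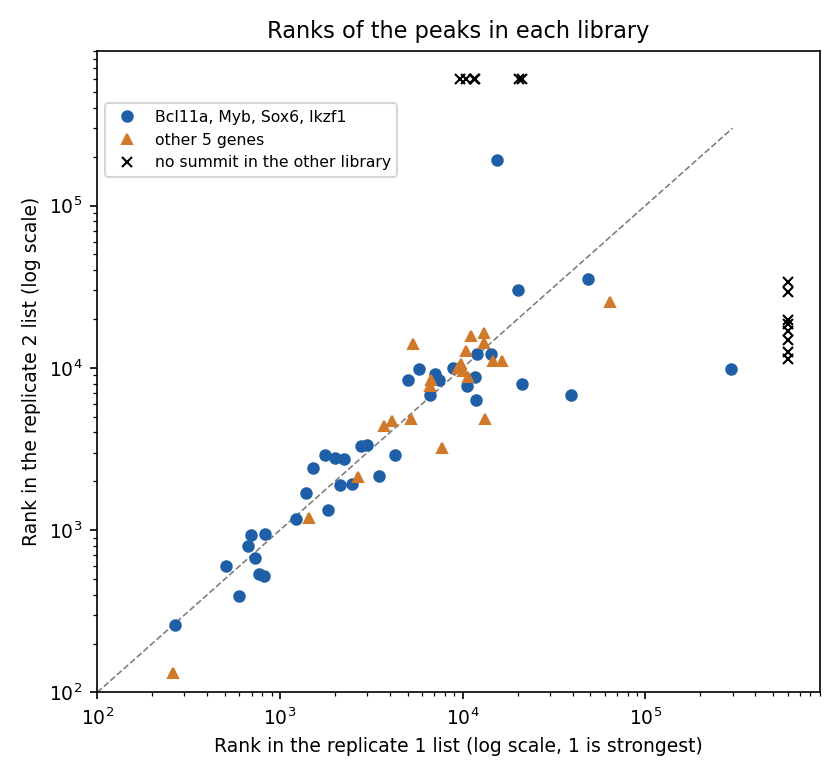
Rank of each peak in the replicate 1 list (horizontal axis) and the replicate 2 list (vertical axis), both on log scales with 1 the strongest, with crosses at the margins for the 14 peaks with a summit in 1 library only. The strong peaks lie along the line of equal rank, and the point farthest above it is the Myb intron peak, at rank 15469 in replicate 1 and 192143 in replicate 2, while the farthest below it is a Sox6 intron peak, at rank 293522 in replicate 1 and 9778 in replicate 2.

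By location, 48 of the 75 peaks were intronic, 21 (28%, interval 19.1 to 39.0) lay at promoters, 5 were intergenic and 1 lay in a noncoding exon stretch. The promoter share over all optimal peaks was 26.2%. The median signal was 43.2 for the 75 and 38.5 for the whole list. Some peaks lay close together: 7 of the 75 had a stronger summit within 500 bp.

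GATA matches were about as common as in the whole optimal list. They were found within 100 bp of the summit in 57 of 75 peaks, 76.0% (65.2 to 84.2), against 74.7% of all optimal peaks. Peaks with a match had a median signal of 53.0 and those without 23.3, while over all optimal peaks the medians were 46.3 and 25.2. All 14 peaks of the strongest decile held a match, against 94.7% of that decile overall. The composite match was found in 17.3% against 17.4%, the E-box in 46.7% against 47.6% and the CACCC-like match in 29.3% against 27.2%. The NFE2 or AP-1 core (TGANTCA) was found in 4.0% against 7.6%, and TGACCA, the sequence that BCL11A itself reads, in 10.7% against 8.8%.

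The RUNX match was found in 20 peaks, 26.7% (18.0 to 37.6), against 17.9% of all. Among the 54 distal peaks the share was 35.2% (23.8 to 48.5), against 20.1% of all distal peaks, and this was the only one of the 7 distal shares whose interval left out the share of the whole list. Among the 21 promoter peaks the CACCC-like match was found in 61.9% (40.9 to 79.2), against 39.1% of all promoter peaks, the matching exception there. Of these 21 promoter peaks, 10 had the listed gene's TSS as the nearest coding TSS and 11 had that of another gene. CACCC-like matches were found in peaks of both kinds, but more often in those nearest to a listed gene's own TSS. Among the 21, 3 had a stronger summit within 500 bp. With 7 motifs read in several groups of peaks these shares are descriptions, and nothing about the factors themselves follows from them.

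**Figure D5:**
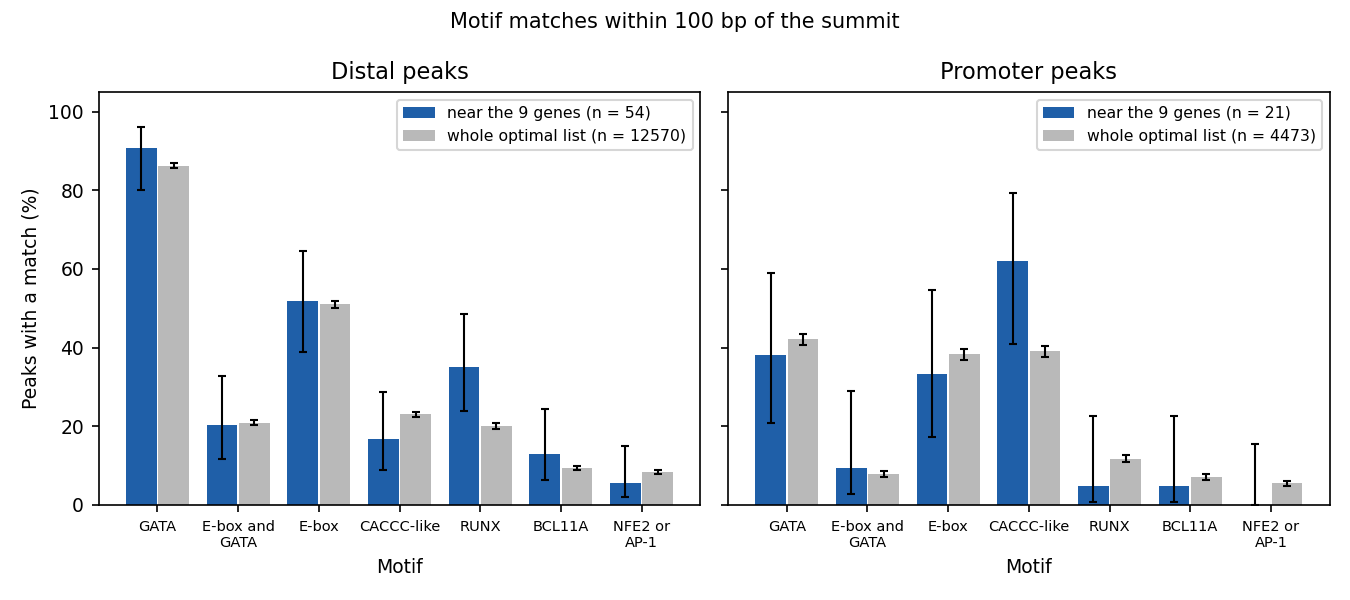
Share of peaks with each motif within 100 bp of the summit (vertical axis, percent, bars from 0) for the peaks near the 9 genes (blue) and the whole optimal list (grey), with distal peaks in the left panel and promoter peaks in the right and 95% Wilson intervals as lines. The distal RUNX share (35.2%) and the promoter CACCC-like share (61.9%) have intervals that lie wholly above the grey bars.

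Other genes of the same pathways were read from lists of known members. Beside them stand the shares over all coding genes, 66.5% within 100 kb and 38.6% within 20 kb. Of the partners of the repressors, 12 of 13 NuRD corepressor genes had a peak within 100 kb and 11 of 13 within 20 kb, led by Mbd2 (252.2), a methyl-DNA binding subunit, and Mta1 (206.8), while the deacetylase Hdac2 had none. Of 9 other corepressors, 8 had one within 100 kb and 7 within 20 kb, led by Ncor1 (176.6, nearest to Pigl) and Sin3a (77.7), and the histone demethylase gene Kdm1a had none. For the 9 genes described here the median strongest signal within 20 kb was 27.8, with Nr2c1 counted as 0. For 14 other regulators of globin genes, which all had a peak in that window, it was 202.2. Zfpm1 (505.5) and Foxo3 (467.9) led that list. The 20 kb window kept the strongest peaks of Bcl11a, Zbtb7a and Sox6. It left out those of other members, among them Myb (285.8 within 100 kb, 14.8 within 20 kb) and Ikzf1 (266.2 and 27.8). Within 100 kb a strongest-decile peak lay near 6 of the 9 and 9 of the 14, against 19.8% of all coding genes.

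Relatives of the 9 genes from the same families came next. Of 16, 12 had a peak within 100 kb and 5 within 20 kb, both near the shares over all coding genes. The strongest within 20 kb were at Ikzf5 (305.8, nearest to Acadsb) and Ikzf4 (111.0, nearest to Rps26), whereas Bcl11b and Nr2f1 had none in the wide window. All 7 genes of the let-7 and LIN28 axis had a peak within 100 kb and 5 within 20 kb, led by Tut7 (397.0), a terminal uridylyltransferase, and Hmga2 (100.6), a let-7 target.

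The labelled tissue was checked by markers. All 8 red cell markers had a peak within 20 kb, with a median strongest signal of 243.3, and so did 5 of 8 hepatocyte markers, with a median of 17.3 over all 8, genes without a peak counted as 0, although Ttr, Serpina1a and Cps1 had none within 100 kb. Of 8 neuronal genes, taken as outside the organ, 2 did, against 38.6% of all coding genes.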

How the data were processed

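The starting point was the set of narrowPeak lists deposited for 2 EP300 ChIP-seq libraries, on assembly mm10 per the file listings. Each library's list and the pooled list hold 300000 entries, the optimal list 17055 and the conservative list 15728. The peak signal is the authors' deposited value for each entry and was used as it stands, and the score that the authors deposited in the optimal list was not used. For the aligner, the caller of the peaks and its cutoff, the answer is not given in the sources used here. Read totals do not accompany the lists, and depth is therefore unknown.

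Summits were taken as the start plus the peak offset, and coordinates are printed counted from 1. The 12 optimal peaks off the autosomes and X were left out. Genes and TSSs came from GENCODE M21, and sequence from GRCm38. A library summit within 100 bp of an optimal summit counted as found. Motif matches were sought on either strand, up to 100 bp from the summit. The 9 genes, the lists and the rules were chosen with earlier results of these data known. The text names all 9 genes, their strongest peaks and all peaks in Bcl11a and upstream of Myb. It also names the coding gene nearest to a described peak where it is another gene. From each list other than those of markers it names the 2 genes with the strongest peak within 20 kb. The first 2 alphabetically with none within 100 kb are named too. The counts of genes with the nearest coding TSS to a strongest-decile peak, and the lymphoid genes without a peak, were added after the values were seen. One item of the lymphoid list is not reported here. There was 1 group, so no test between groups was made, and shares carry 95% Wilson intervals. Alternatives were other peak lists, windows, assignments, summit distances, motif windows and promoter windows. Scripts used Python 3.11.15, pandas 2.3.3, numpy 2.4.6, scipy 1.17.1, pysam 0.24.0 and matplotlib 3.10.9, and the window and motif searches were tested on simulated data.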

Additional observations from a re-analysis of the deposited data

How the results depend on the processing

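The count of 75 peaks was 39 with optimal peaks above the median signal alone, 23 with a window of 20 kb and 45 where the listed gene had to have the nearest coding TSS. The share with a summit in both libraries, 81.3%, was 45.3% with summits within 25 bp and 89.1% with the conservative list. The GATA share, 76.0%, was 92.3% above the median signal. The cause of these shifts was not tested beyond the construction of each setting, which drops peaks or narrows a distance. Leaving out each replicate gave 70 to 73 peaks, 9 genes each time, GATA shares of 77.1% to 78.1% and promoter shares of 27.1% to 27.4%. The other 30 of 36 values of these 5 results kept within their limits. Without replicate 2, Sox6 had 15 peaks and Lin28b 3. Of 90 counts per gene, 28 moved by over 1.5 times. No paired analysis was possible because there is only 1 group. With no read totals, it is unknown how far depth limits the weak peaks.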
